A study of Mus musculus with 47 samples.

Results

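The mouse mitochondrial genome encodes 37 genes, and their transcripts were followed here through the brainstem and hippocampus of WT and transgenic (TG) mice fed 2 diets. Members were all genes whose Ensembl identifier maps to a symbol that begins with mt-, namely 13 mRNA genes, 2 rRNA genes and 22 tRNA genes. Of these, 29 had a row among the 33139 genes listed for brainstem and 27 among the 31751 listed for hippocampus. All mRNA and rRNA genes were listed in both regions, and 11 tRNA genes were listed in both. The 7 tRNA genes listed in neither region were mt-Tv, mt-Tw, mt-Tg, mt-Tr, mt-Ts2, mt-Tl2 and mt-Tt.

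All animals were male C57BL/6 mice aged 12 months. TG mice were homozygous for a transgene that encodes a mutant human alpha-synuclein. It is driven by a Thy1 promoter that is active in neurons of the central nervous system. TG mice were bred as their own homozygous colony. WT mice shared the origin of that line but formed a colony of their own, so a difference between the genotypes cannot be told apart from a difference between the colonies. The animals received a standard diet (SD) or a high fat diet (HFD) from 5 weeks of age, which gave the groups WT_SD, WT_HFD, TG_SD and TG_HFD. Hippocampus had 6 libraries in every group, and brainstem (the medulla) had 5 in WT_SD and 6 in each other group. RNA was selected for poly(A) tails and read as single ends of 75 bases, and the authors deposited a raw read count for every gene and library. Total counts ran from 10020784 to 15078812 in the 23 brainstem libraries and from 11945971 to 17328447 in the 24 hippocampus libraries. Marker genes of the hindbrain summed to 319 CPM (counts scaled to a common library size) or more in every brainstem library and to at most 0.645 CPM in hippocampus, and hippocampal markers to at most 172 against at least 679 CPM. The letter in a library's title changes with region and group, so that whatever else this letter may mark cannot be told apart from them.

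The mitochondrial genome is a small circular DNA that is present in many copies per cell. Both of its strands are transcribed into long precursors, which are cut mainly at the tRNAs that lie between the other genes, and most of the freed mRNAs and both rRNAs then receive short poly(A) tails. The heavy strand promoter yields the rRNAs, most tRNAs and all mRNAs but mt-Nd6, and the light strand promoter yields mt-Nd6 and the tRNAs of the other orientation. The mRNAs encode core subunits of respiratory complex I (mt-Nd1 to mt-Nd6 and mt-Nd4l), complex III (mt-Cytb), complex IV (mt-Co1 to mt-Co3) and ATP synthase (mt-Atp6 and mt-Atp8). Neurons depend on these complexes for most of their ATP.

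Counts on the tRNA genes were low, and 3 of the 22 had a mean count of 50 or more in either region, the minimum for a test. Mature tRNAs carry no poly(A) tail, and the reads were longer than most of these genes, so that a counted read can come from a precursor. The sequences of these 3 genes are shown because the results on tRNA genes rest on them. They are read 5′ to 3′ along the gene's own strand from the GENCODE annotation of build GRCm38, with the anticodon in capitals. All lie on the minus strand, mt-Tn (asparagine) at chrM:5089-5159, mt-Tc (cysteine) at chrM:5192-5257 and mt-Tp (proline) at chrM:15356-15422.
mt-Tn: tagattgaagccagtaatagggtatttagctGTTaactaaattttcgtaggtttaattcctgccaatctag
mt-Tc: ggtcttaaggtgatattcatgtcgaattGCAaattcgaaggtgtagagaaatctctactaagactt
mt-Tp: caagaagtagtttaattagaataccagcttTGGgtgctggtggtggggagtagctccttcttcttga
mt-Tn and mt-Tc flank the 32 gene-free bases that hold the known start of light strand replication. mt-Tp lies at the edge of the control region and is the first gene that transcription from the light strand promoter meets.

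mt-Tc was the tRNA gene with the most counts, with means of 408 in brainstem and 324 in hippocampus. mt-Tn followed with 68.4 and 65.2, and mt-Tp with 47.1 and 70.2. A further 3 genes had a mean over 1 count in both regions, mt-Ts1 (6.7 and 7.21), mt-Ty (2.52 and 3.33) and mt-Te (1.78 and 1.96), and mt-Tm reached 1.42 in hippocampus only. The 6 tRNA genes over 1 count in both regions all lie on the minus strand, where 8 of the 22 tRNA genes are, while the library kit does not mark the strand of a read. The other listed tRNA genes stayed at a mean of 1 count or fewer, and mt-Tk was listed only for hippocampus, and mt-Tf, mt-Ti and mt-Ta only for brainstem.

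Part of the reads from the mitochondrial genome was also counted on nuclear genes. In total, 12 nuclear pseudogenes shared at least 1 exact stretch of 75 bases with a mitochondrial gene, and 7 of them lie side by side on chromosome 1. In 5 of the 12, Gm28439 (a copy of mt-Nd4), Gm28437 (mt-Co3), Gm28661 (mt-Co2), Gm10925 (mt-Atp6) and Gm10222 (mt-Nd4l), every 75-base stretch of the pseudogene was also found in its mitochondrial counterpart. The pair of Gm28661 and mt-Co2 shows how shared reads were counted. Gm28661 exceeded mt-Co2 by 0.0355% to 0.0813% in the 23 brainstem libraries and by 0.0234% to 0.0928% in the 24 hippocampus libraries, where assigning each shared read at random to either gene would give an SD of 0.333% to 0.46%. Counting each shared read at both genes gives such equal counts. Gm10925 exceeded mt-Atp6 by 16.6% to 20.5% and by 15.9% to 19.7%, and mt-Atp6 overlaps mt-Atp8 while its copy overlaps no annotated gene. The 12 pseudogenes together held 19005062 counts in brainstem, equal to 60.4% of the counts of the mitochondrial genes themselves, and 18755410 in hippocampus, equal to 58.7%. They made up 6.57% ± 0.477 (SD, n = 23) of all counts in brainstem and 5.37% ± 0.571 (SD, n = 24) in hippocampus, and how many of these counts were also counted on a mitochondrial gene was not tested for the copies that share only part of their sequence.

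In both regions the mitochondrial mRNAs took up a large and narrow share of all counts. The 13 mRNAs held 10.2% ± 0.693 (SD, n = 23) of the counts in brainstem, from 9.07% to 11.2%, and 8.36% ± 0.86 (SD, n = 24) in hippocampus, from 7.33% to 10.8%. In 20 of the 24 hippocampus libraries the share lay below the lowest of brainstem. The 2 rRNAs held 0.682% ± 0.0854 and 0.789% ± 0.0941, and the tRNA genes 0.00426% ± 0.00033 and 0.00328% ± 0.000382. With the 12 pseudogenes taken out of the totals, the share of all members rose from 10.9% ± 0.745 to 11.7% ± 0.856 in brainstem and from 9.15% ± 0.944 to 9.67% ± 1.06 in hippocampus, and the order of the regions was the same. Within a region the 4 groups overlapped. In brainstem the mean mRNA share was 10.3% ± 0.858 in WT_SD (n = 5), 10% ± 0.558 in WT_HFD, 10.3% ± 0.776 in TG_SD and 10.2% ± 0.742 in TG_HFD (n = 6 each). In hippocampus it was 8.18% ± 0.63, 7.91% ± 0.346, 8.83% ± 1.35 and 8.51% ± 0.7 in the same order (n = 6 each), and the larger SD of TG_SD came with 2 libraries above 10%. In bulk tissue, a lower share from fewer cells of a type and one from less RNA per cell cannot be told apart.

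**Figure D1:**
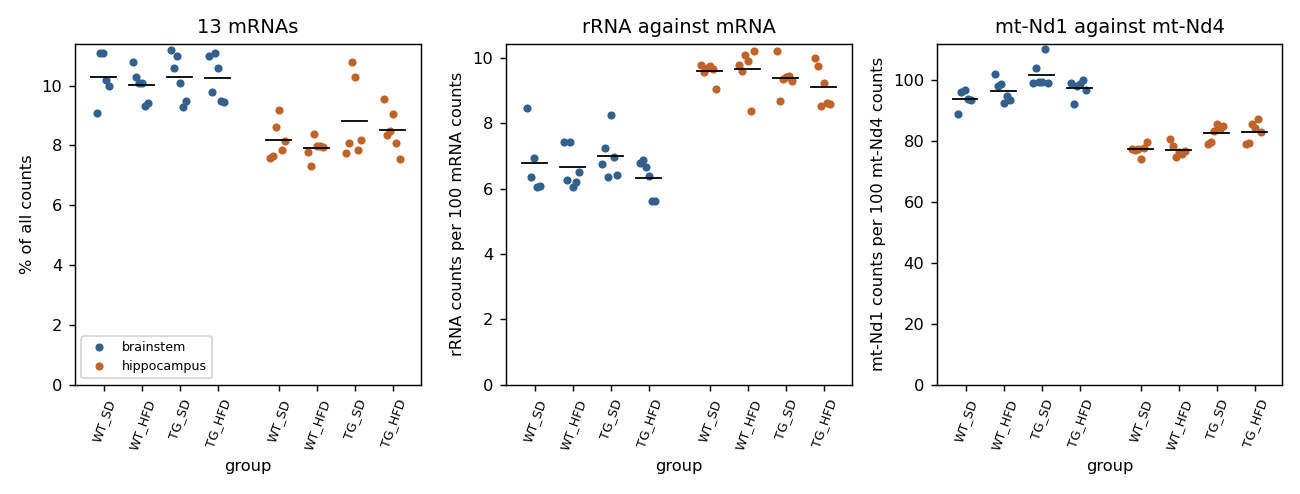
Share of all counts held by the 13 mitochondrial mRNAs (left, percent), counts of the 2 mitochondrial rRNAs per 100 counts of the mRNAs (middle) and mt-Nd1 counts per 100 mt-Nd4 counts (right), by group, for brainstem (blue) and hippocampus (orange). Each point is a library and each line a group mean. The mRNA shares of the 2 regions overlap, whereas the mt-Nd1 ratio lies between 88.9 and 110 in brainstem and between 74 and 87.2 in hippocampus.

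Levels per length differed widely between the mRNA genes, of which all but mt-Nd6 start from the same precursor. On the scale of TMM-normalised CPM per kilobase of gene, mt-Co1, the catalytic subunit of complex IV, was highest in both regions, with 18500 ± 1590 (SD, n = 23) in brainstem and 15100 ± 1730 (SD, n = 24) in hippocampus. mt-Atp6, the proton channel subunit of ATP synthase, followed with 16700 ± 1450 and 14800 ± 1820, mt-Co2 with 15600 ± 1370 and 12800 ± 1590, and mt-Co3 with 14800 ± 1460 and 12500 ± 1710. The intervals of mean ± SD of neighbours in this order overlapped in both regions. Gm10925, the copy of mt-Atp6, exceeded mt-Atp6 by 16.6% to 20.5% in brainstem libraries and by 15.9% to 19.7% in hippocampus libraries. Which of mt-Co1 and mt-Atp6 is higher can therefore depend on how reads were assigned. The complex III subunit mt-Cytb stood at 7630 ± 608 and 6510 ± 757. Among complex I subunits, the levels ran from mt-Nd1 with 8160 ± 707 and 6250 ± 792 down to mt-Nd5 with 2470 ± 223 and 2280 ± 268, with mt-Nd4 (5810 and 5420), mt-Nd2 (4960 and 4030), mt-Nd3 (4270 and 3360), mt-Nd6 (3000 and 2660) and mt-Nd4l (2690 and 2680) between them. The value of mt-Atp8 was the lowest of the mRNA genes, with 1630 ± 379 and 1230 ± 365. It was scaled by all 204 bases of the gene, of which 161 are its own. mt-Atp8 overlaps mt-Atp6 and shares an mRNA with it, and how reads across the overlap were assigned is not stated. The value is therefore not read as the level of a separate mRNA. The rRNAs mt-Rnr1 (2440 ± 340 and 2980 ± 360) and mt-Rnr2 (2780 ± 369 and 3270 ± 467) lay in the range of the lower mRNAs in these poly(A)-selected libraries. mt-Tc reached 484 ± 46 and 344 ± 44.2, mt-Tn 75.8 ± 11.4 and 64.4 ± 13.8, and mt-Tp 54.2 ± 24.1 and 73.5 ± 17.5.

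**Figure D2:**
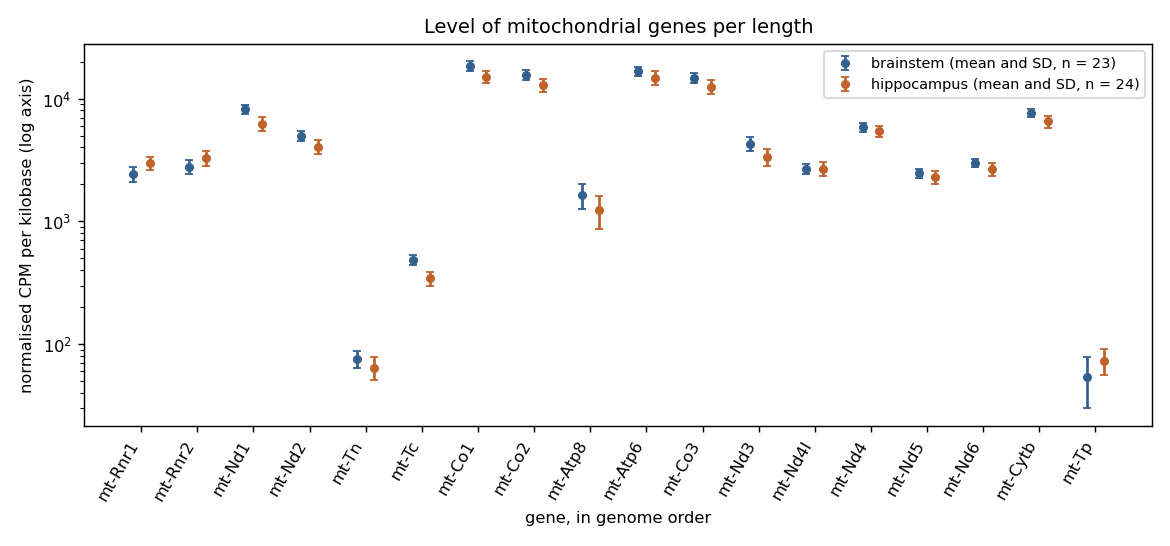
Normalised CPM per kilobase (log axis) of the 13 mRNAs, 2 rRNAs and 3 tRNA genes in genome order, mean with SD over 23 brainstem libraries (blue) and 24 hippocampus libraries (orange). On the deposited counts mt-Co1 is highest with 18500 in brainstem and 15100 in hippocampus, and the 3 tRNA genes lie below all mRNAs and rRNAs. The order of mt-Co1 and mt-Atp6 and the value of mt-Atp8 can depend on how reads were assigned.

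mt-Atp8, a small accessory subunit of ATP synthase, shares part of its gene with mt-Atp6. It is 204 bases long and its end overlaps the start of mt-Atp6 by 43 bases on the same strand, which leaves 161 bases of its own. Both proteins are read from 1 shared mRNA in different frames. The stretch around the overlap (plus strand of chrM, GRCm38) is shown with the shared bases in capitals and 30 bases on each side.
mt-Atp8/mt-Atp6: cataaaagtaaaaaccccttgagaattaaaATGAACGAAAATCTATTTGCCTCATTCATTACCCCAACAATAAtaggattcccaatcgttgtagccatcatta
How reads across the overlap were assigned is not stated. mt-Atp8 had 2.91 ± 0.605 counts per 100 counts of mt-Atp6 in brainstem (SD, n = 23) and 2.47 ± 0.619 in hippocampus (n = 24).

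The region comparison asked how the mitochondrial transcripts differ between hippocampus and brainstem. The study took both regions from 6 animals per group, but the labels do not say which libraries share an animal, so the fit treats all 47 as independent. mt-Tc and most mRNAs were lower in hippocampus, apart from mt-Nd4l, whose sign changed with the scaling, while both rRNAs were higher. Tested with edgeR across 13462 genes as the mean difference over the 4 groups, 12 of the 13 mRNAs had an unadjusted p of 0.05 or less and a negative difference, where 87.2% of all genes had such a p in either direction, while mt-Nd4l stood at -0.01 (adjusted p = 0.88). The median of the mRNAs was -0.25 on the log2 scale (hippocampus minus brainstem), against -0.018 over all tested genes. A gene was called at an adjusted p of at most 0.05 and a log2 difference of at least 0.3 in size. By this rule 4 members were lower in hippocampus, where 30.8% of all genes were, and 1 was higher, where 29.4% were, so the number of calls does not set the members apart from other genes. The 4 lower members were mt-Tc (-0.50, SE 0.047, adjusted p = 1.19e-13), mt-Nd1 (-0.39, SE 0.0394, adjusted p = 1.2e-12), mt-Nd3 (-0.35, SE 0.0538, adjusted p = 1.02e-07) and mt-Atp8 (-0.39, SE 0.0938, adjusted p = 0.000169). mt-Nd2 (-0.30) and mt-Co1 (-0.29) lay just short of the threshold, followed by mt-Co2 (-0.28), mt-Co3 (-0.25), mt-Tn (-0.24), mt-Cytb (-0.23), mt-Atp6 (-0.18), mt-Nd6 (-0.18), mt-Nd5 (-0.12) and mt-Nd4 (-0.10). mt-Rnr1 (0.29, SE 0.0525, adjusted p = 2.65e-06) and mt-Rnr2 (0.23, SE 0.0549, adjusted p = 0.000156) differed in the opposite direction without reaching the fold threshold. In libraries selected for poly(A) tails, more rRNA cannot be told apart from more of the rRNA being captured by its tails. mt-Tp (0.51, SE 0.108, adjusted p = 3.25e-05) was the member called higher, and within single groups it was called in TG_SD and TG_HFD. Its mean count of 47.1 in brainstem lay below the minimum for a test, and it was tested here through its mean of 70.2 in hippocampus.

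A correction of each library for GC content moved these values. It took mt-Nd1 to -0.24, mt-Atp8 to -0.18 and mt-Nd3 to -0.14, none of which was then called. mt-Nd4l (0.10), mt-Nd4 (0.07), mt-Nd5 (0.04) and mt-Nd6 (0.01) then turned positive, and mt-Rnr1 (0.45) and mt-Rnr2 (0.40) were called. mt-Tc (-0.34) and mt-Tp (0.57) remained called.

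**Figure D3:**
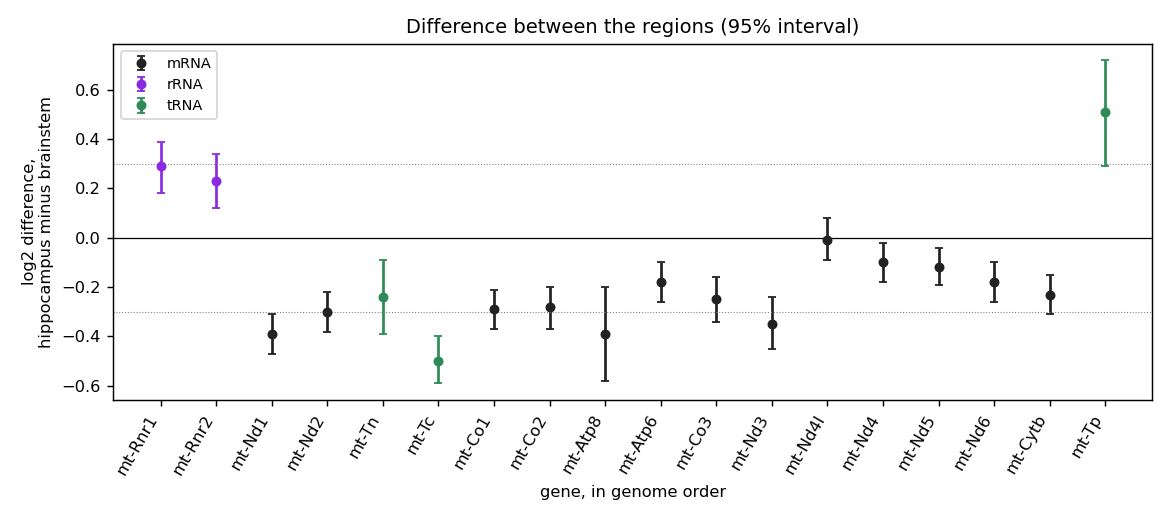
Difference between hippocampus and brainstem (log2, hippocampus minus brainstem, mean over the 4 groups) with its 95% interval from edgeR for 18 mitochondrial genes in genome order, mRNAs in black, rRNAs in purple and tRNA genes in green. Dotted lines mark 0.3 on either side of 0. The mRNAs lie at or below 0, except that mt-Nd4l turned positive under other scalings and mt-Nd4l, mt-Nd4, mt-Nd5 and mt-Nd6 under the GC correction, and the rRNAs and mt-Tp lie above 0.

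Ratios within the mitochondrial genes do not depend on how a library is scaled against nuclear RNA. The rRNAs had 6.69 ± 0.719 counts per 100 mRNA counts in brainstem (SD, n = 23), from 5.63 to 8.47, and 9.44 ± 0.542 in hippocampus (n = 24), from 8.37 to 10.2. Within each group, every hippocampus library lay above every brainstem library. The limit that poly(A) selection sets on rRNA counts holds for this ratio too. For mt-Nd1 and mt-Nd4, a pair chosen after its values were seen, brainstem had 97.5 ± 4.49 counts of mt-Nd1 per 100 of mt-Nd4, from 88.9 to 110, and hippocampus 80 ± 3.79, from 74 to 87.2. The regions did not overlap over all 47 libraries in this ratio. mt-Nd4 held 8.81% of the mRNA counts in hippocampus and 7.97% in brainstem, again without overlap. The libraries of the regions also differed in cell markers, and oligodendrocyte markers summed to 11900 to 20200 CPM in brainstem and to 2730 to 4350 CPM in hippocampus, and excitatory neuron markers to 338 to 393 and to 4540 to 5650 CPM. Their part in the difference between the regions was not tested.

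Within each region, the genotype and diet comparisons asked whether the transgene, the diet or their combination went with other levels of mitochondrial transcripts. Each region was fitted with edgeR across its 13340 or 13272 tested genes, with 4 surrogate variables, and no member was called in any of 10 comparisons, nor with DESeq2. In brainstem the 17 tested members can be set against 0.142% of all genes called in TG_SD against WT_SD, 0.0525% in TG_HFD against WT_HFD, 0% in WT_HFD against WT_SD, 0.00750% in TG_HFD against TG_SD and 0.00750% for the interaction of genotype and diet. For the 18 tested in hippocampus these were 0.0980%, 0.226%, 0%, 0% and 0%. With so few calls among all genes, 0 members is no result about the mitochondrial genes. At an unadjusted p of 0.05 or less there were from 0 to 3 mRNAs in the 5 brainstem comparisons and from 1 to 7 in those of hippocampus, where 4.84% to 10.5% and 5.98% to 11.4% of all tested genes did.

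The comparison with the most members at an unadjusted p of 0.05 or less was TG_SD against WT_SD in hippocampus, where 7 of the 13 mRNAs, 1 rRNA and 1 tRNA gene reached it, beside 9.08% of all tested genes. All 13 mRNAs had a positive difference there, with a median of 0.12 on the log2 scale. mt-Co3, a core subunit of complex IV, had a mean of 10500 ± 2160 CPM in TG_SD (SD, n = 6) and of 9310 ± 780 in WT_SD (n = 6), with ranges of 8890 to 13500 and 8690 to 10700. Its difference of 0.14 (SE 0.0348), adjusted for the surrogate variables, had an unadjusted p of 0.00044 and an adjusted p of 0.13 in edgeR. The SD of its log2 CPM within groups of hippocampus, taken without that adjustment, was 0.181. mt-Nd1 had 6470 ± 1210 against 5590 ± 451 CPM, and its difference was 0.15 (SE 0.0399, adjusted p = 0.14). The groups overlapped for both genes. TG_SD replicates 5 and 6 had the highest mRNA shares of that group, 10.8% and 10.3%. Leaving out single libraries gave a difference in mRNA share of 0.267 to 0.865 percentage points. In brainstem, all 13 mRNAs had a negative difference in WT_HFD against WT_SD, with a median of -0.05, and 2 had an unadjusted p of 0.05 or less, mt-Nd6 (-0.15, adjusted p = 0.90) and mt-Atp8 (-0.20, adjusted p = 0.90). All mRNAs but mt-Nd6 come from the heavy strand precursor, so that equal signs among them are not separate observations.

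mt-Nd4l, a small core subunit of complex I, was the only one of the 17 tested members in brainstem whose normalised CPM did not overlap between the genotypes or diets compared. It lay between 816 and 904 CPM in TG_HFD and between 711 and 808 in WT_HFD, which is 1 of 17 tested members where 0.690% of all tested genes did not overlap. edgeR gave a difference of 0.10 (SE 0.0831, adjusted p = 0.96). The ratio of mt-Nd1 to mt-Nd4 was computed as counts of mt-Nd1 per 100 of mt-Nd4. In brainstem it was 102 ± 4.69 in TG_SD (n = 6), from 98.9 to 110, and 93.8 ± 3.07 in WT_SD (n = 5), from 88.9 to 96.6, without overlap, while TG_HFD (97.4 ± 2.89, from 92 to 100) and WT_HFD (96.5 ± 3.62, from 92.4 to 102) overlapped. In hippocampus it was 82.7 ± 2.73 in TG_SD, 83.1 ± 3.31 in TG_HFD, 77.2 ± 1.84 in WT_SD and 77 ± 2.09 in WT_HFD, with overlapping ranges. The ratio was chosen after its values were seen and was given no test.

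mt-Tp was the member whose brainstem counts separated TG_SD from WT_SD. Its mean of 47.1 counts left it below the minimum for a test there, yet its counts in the 6 TG_SD libraries were 18, 27, 23, 19, 16 and 20, and in the 5 WT_SD libraries 46, 61, 72, 71 and 66. In CPM of the total count, TG_SD lay between 1.43 and 2.16 (mean 1.77 ± 0.314) and WT_SD between 4.59 and 5.07 (4.81 ± 0.192), and the groups did not overlap. On the scale of TMM-normalised CPM the groups did not overlap for mt-Tp either. On that scale, 0.547% of the 13340 genes over the count minimum, which do not include mt-Tp, did not overlap. On HFD the libraries were more spread. The 6 WT_HFD libraries had 2.3 to 6.44 CPM with a mean of 4.8 ± 1.44, and the 6 TG_HFD libraries 1.32, 2.34, 3.38, 4.07, 4.65 and 5.53 with a mean of 3.55 ± 1.54, so that TG_HFD spanned the ranges of both SD groups. In hippocampus the 4 groups overlapped, with means of 4.09 ± 1.1 in WT_SD, 4.53 ± 0.961 in WT_HFD, 5.33 ± 0.791 in TG_SD and 5.45 ± 1.19 in TG_HFD (SD, n = 6 each).

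**Figure D4:**
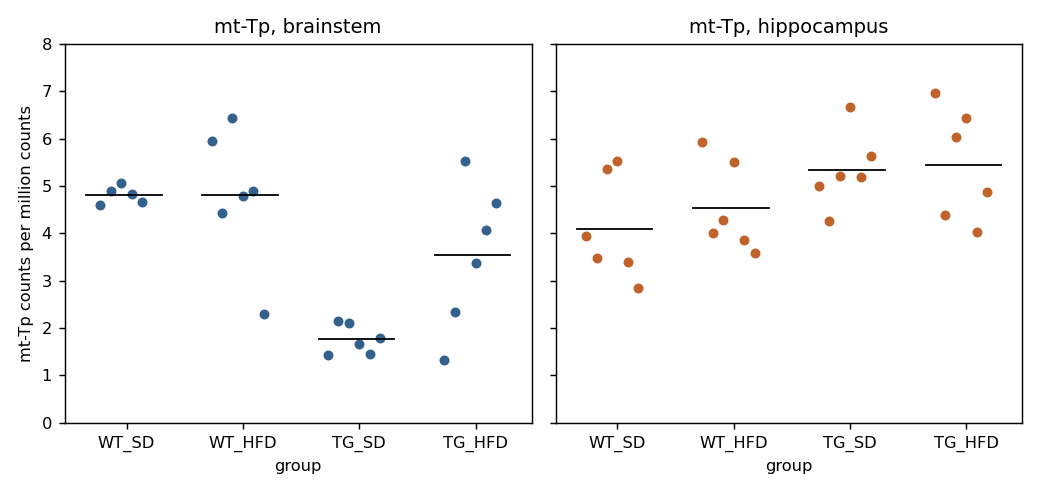
mt-Tp counts in CPM of the total count in each library by group, for brainstem (left) and hippocampus (right), with a line at each group mean. The 6 TG_SD libraries of brainstem lie between 1.43 and 2.16, below all 5 WT_SD libraries, and the groups of hippocampus overlap.

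With edgeR's filterByExpr in place of the count minimum, mt-Tp was tested in brainstem and fell by 1.34 on the log2 scale in TG_SD against WT_SD (SE 0.244, adjusted p = 0.0056), as 1 of 19 genes called, 0.107% of the 17834 tested. It was not called in TG_HFD against WT_HFD (-0.16, SE 0.288, adjusted p = 0.994), in WT_HFD against WT_SD (-0.21, SE 0.243, adjusted p = 0.988), in TG_HFD against TG_SD (0.97, SE 0.26, adjusted p = 0.425) or for the interaction (1.18, SE 0.38, adjusted p = 0.998). The call in TG_SD was lost when TG_SD replicate 6 was left out (-1.26, adjusted p = 0.059).

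The joint fit of both regions tested directly whether the genotype difference on SD was the same in both. It was not for mt-Tp, which differed by 1.85 on the log2 scale (hippocampus minus brainstem, SE 0.318, 95% interval 1.21 to 2.49, edgeR adjusted p = 0.00688). mt-Tp had a mean of 47.1 counts in brainstem, below the minimum for a test, and of 70.2 in hippocampus. It entered the joint fit through its hippocampus counts. With filterByExpr in place of that minimum, the difference was also 1.85 (edgeR adjusted p = 0.00734). Of the 13462 genes tested with the minimum, mt-Tp was the only one called, 0.00743%. On HFD the same contrast gave 0.67 (SE 0.289, adjusted p = 0.86). Between the regions within a group, mt-Tp was higher in hippocampus in TG_SD (1.64, SE 0.233, adjusted p = 1.93e-08) and in TG_HFD (0.63, SE 0.204, adjusted p = 0.00549), while in WT_SD (-0.21, SE 0.214, adjusted p = 0.39) and WT_HFD (-0.04, SE 0.204, adjusted p = 0.87) the difference was smaller than its SE.

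Other genes of the same strand were not called in brainstem. The library kit does not mark the strand of a read, so counts on these genes and on mt-Tp can come from either strand. In TG_SD against WT_SD, edgeR gave -0.04 (SE 0.0685, adjusted p = 0.88) for mt-Tc, 0.03 (SE 0.141, adjusted p = 0.96) for mt-Tn and -0.07 (SE 0.0494, adjusted p = 0.67) for mt-Nd6, the mRNA transcribed from the light strand promoter. mt-Tp held 4.25% ± 0.51 of the tRNA gene counts in TG_SD (n = 6) and 11% ± 0.319 in WT_SD (n = 5). The summed CPM of each of 14 lists of cell type and region markers overlapped between these groups, and the most uneven was that of the choroid plexus (18.1 to 2980 CPM in TG_SD and 22.5 to 1590 in WT_SD). Reads outside annotated genes, such as those of the control region beside mt-Tp, were not analysed here.

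Among the mRNAs, mt-Atp8 varied most between libraries of the same group. The SD of its log2 CPM within groups was 0.434 in hippocampus, above that of 99.5% of tested genes, and 0.241 in brainstem, above 84.5%. In hippocampus its fitted interaction of genotype and diet, adjusted for 4 surrogate variables, was -0.62 (SE 0.179). Its unadjusted p was 0.0015 and its adjusted p 0.60 in edgeR. The same fit gave 0.32 (SE 0.133, adjusted p = 0.73) in WT_HFD against WT_SD. It gave -0.42 (SE 0.157, adjusted p = 0.26) in TG_HFD against WT_HFD. In counts per 100 of mt-Atp6, the brainstem groups had 2.87 ± 0.271 (WT_SD), 2.29 ± 0.35 (WT_HFD), 3.54 ± 0.32 (TG_SD) and 2.93 ± 0.621 (TG_HFD), and the hippocampus groups 2.39 ± 0.639, 2.24 ± 0.587, 2.82 ± 0.466 and 2.44 ± 0.758. For both hippocampus comparisons given from the fit, the fitted sign was thus opposite to that of this ratio. This ratio moved with the GC slope of a library, the slope of its log2 deviation from the mean library on the GC content of genes. Over 23 brainstem libraries, Pearson's r of this relation reached -0.837 and Spearman's rho -0.831, with a permutation p of 1e-05 for both, the smallest that 100000 permutations can give, and an adjusted p of 6e-05 over 6 relations. r was -0.757 without the 2 libraries farthest from the median slope and -0.797 with group means removed. In hippocampus r was -0.6 (permutation p = 0.00216, adjusted p = 0.00648) and rho -0.546 (permutation p = 0.0064) over 24 libraries, -0.498 without the 2 farthest and -0.617 with group means removed. The groups differed in this slope too, with a mean of 0.114 ± 0.066 in WT_HFD and of -0.0804 ± 0.114 in TG_SD of brainstem. For the share of the mRNAs and the ratio of rRNA to mRNA, r lay between -0.352 and 0.0706 and adjusted permutation p from 0.202 to 0.899.

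**Figure D5:**
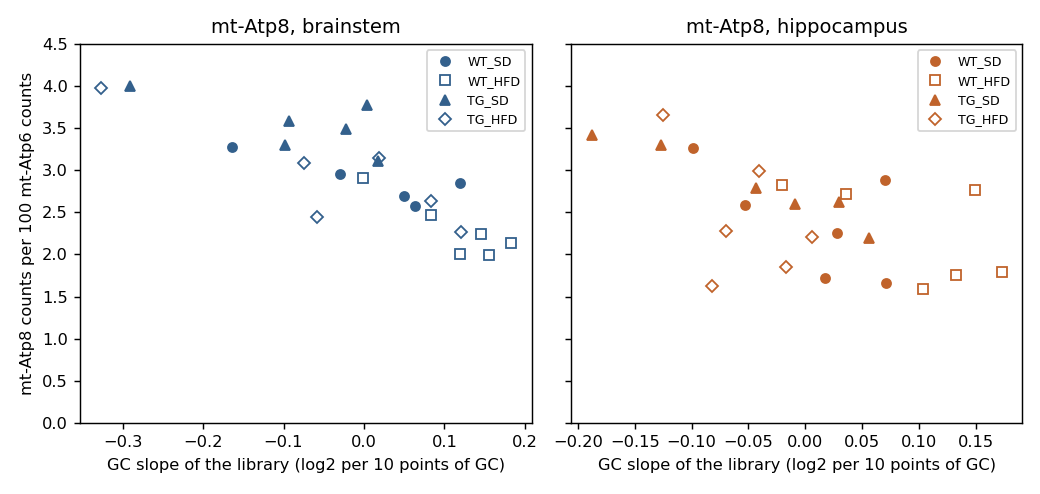
mt-Atp8 counts per 100 mt-Atp6 counts against the GC slope of the library (log2 per 10 points of GC content) for brainstem (left, n = 23) and hippocampus (right, n = 24), each point a library marked by group. The ratio falls with the slope in both regions, with r of -0.837 and -0.6.

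The mRNAs moved together from library to library. After subtracting group means, mt-Nd1 had a correlation of 0.95 with the mean of the 13 mRNAs in brainstem and of 0.939 in hippocampus, and mt-Nd4 of 0.95 and 0.981. mt-Nd4l (0.711 and 0.856) and mt-Atp8 (0.715 and 0.698) were the lowest of the mRNAs. Each mRNA is itself part of this mean, so its value is partly built in. The same holds for the pseudogene copies, which share sequence and reads with the mRNAs, but not for the rRNAs and other nuclear genes. mt-Rnr1 and mt-Rnr2 had 0.634 and 0.68 in brainstem and 0.924 and 0.944 in hippocampus. The nuclear genes most like the mRNA mean were mainly the pseudogene copies, led by Gm10925 with 0.959 in brainstem and 0.971 in hippocampus. With the copies left out, the 5 most alike were Dbndd2 (0.921), Polr2g (0.886), Tbca (0.872), Fabp5 (0.842) and Gm7384 (0.835) in brainstem, and Rpl9 (0.936), Fam213a (0.932), Rpl26 (0.927), Aldoc (0.927) and Rps14 (0.924) in hippocampus. These correlations share library depth and composition and serve as descriptions.

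The nuclear genes that copy, transcribe and process the mitochondrial genome were listed as 52 genes. Within regions none of the 47 tested in brainstem or the 45 tested in hippocampus was called by edgeR in any of 10 comparisons, and 1 to 3 had an unadjusted p of 0.05 or less in each, where 4.84% to 11.4% of all tested genes did. In TG_SD against WT_SD of brainstem, Polrmt, the mitochondrial RNA polymerase, had 0.08 (SE 0.0754, adjusted p = 0.76), Tfam, which packs mitochondrial DNA and starts its transcription, 0.04 (SE 0.0598, adjusted p = 0.86), and Lrpprc, which stabilises the mRNAs, -0.01 (SE 0.0393, adjusted p = 0.97). In hippocampus these were 0.00, -0.05 and 0.01, with adjusted p of 0.99, 0.80 and 0.98. Slirp, the partner of Lrpprc, was listed only for hippocampus with at most 0.142 CPM and was not tested, and this value is not read as absent expression.

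Between the regions, 20 of 46 tested genes of this list were lower and 5 higher in hippocampus, 43.5% and 10.9% of them beside 30.8% and 29.4% of all genes, with a median of -0.211 against -0.018 over all genes. Tfam fell by 0.35 on the log2 scale (SE 0.0302, adjusted p = 4.31e-15), from 42.2 ± 3.18 CPM in brainstem (SD, n = 23) to 33 ± 2 in hippocampus (n = 24). Lrpprc (-0.22, SE 0.0307) and Polrmt (0.25, SE 0.0762) did not reach the fold threshold. The largest differences among called genes were those of Mrm1 (-0.84), which methylates mitochondrial rRNA, Grsf1 (-0.71), which binds RNA in mitochondrial granules, and Tfb1m (-0.70), an rRNA methyltransferase, and on the other side Fastk (0.48), Top1mt (0.45), a topoisomerase of mitochondrial DNA, and Twnk (0.38), its helicase. Of the nuclear complex I subunits, 23 of 37 were lower in hippocampus and none higher (median -0.431), and of those of complexes II to V 29 of 40 were lower and 3 higher (median -0.438). Of the mitochondrial ribosomal proteins, 29 of 76 were lower and 3 higher (median -0.175). The share called lower was 62.2% and 72.5% in the 2 lists of subunits and 38.2% among the ribosomal proteins, beside 30.8% of all genes.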

How the data were processed

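Poly(A) RNA was measured in 23 brainstem and 24 hippocampus libraries, grouped by their labels. The authors aligned reads with STAR 2.7.9a to the Ensembl v104 mouse genome extended by the transgene and deposited raw counts per gene and library. The transgene's own level is not reported here. The counting program is not given in the sources used here. The authors checked reads with FastQC 0.11.9 and used DESeq2 1.32.0. Symbols, lengths and sequences came from GENCODE annotation of GRCm38, another build than that of the counts, matched by identifier. The members and lists were chosen with earlier results of these data known. Members were named by class, and nuclear genes by list, by call and by size of difference.

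Counts were analysed with edgeR 4.0.16 (TMM, quasi-likelihood test, Benjamini-Hochberg over all tested genes) in R 4.3.3, for genes whose counts averaged 50 or more. Each region was fitted with 4 groups and 4 surrogate variables (sva 3.50.0), and both regions jointly with 8 groups and none. Shares and ratios were described without a test. Alternatives included DESeq2 1.42.0, RLE, other filters, a GC offset and leaving out each library. The fits were also run on simulated data, but without surrogate variables, so the adjustment for these was not tested. The regions may share animals, which the labels do not name, so p-values measure the spread between libraries taken as independent. Few tRNA genes had counts high enough for a test.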

Additional observations from a re-analysis of the deposited data

Results flagged for a closer look

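The difference between the regions in the genotype effect on SD for mt-Tp, 1.85 on the log2 scale in edgeR, stood out because the effects of 2 regions under the same contrast differed by a test of the difference itself. In brainstem mt-Tp had 1.77 ± 0.314 CPM in TG_SD and 4.81 ± 0.192 in WT_SD, and in hippocampus 5.33 ± 0.791 and 4.09 ± 1.1, where the fit of that region gave 0.39 (SE 0.141, adjusted p = 0.34) in the opposite direction. No cause was tested.

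In hippocampus, 2 libraries stood apart from their group in rRNA counts per 100 mRNA counts. WT_SD replicate 8 had 9.06 where its nearest neighbour had 9.57, a gap of 0.692 of the group's range, and WT_HFD replicate 7 had 8.37 where its nearest neighbour had 9.6, a gap of 0.689, both above Dixon's critical value for 6 samples. Over 8 measures 64 groups were examined and 2 stood out, and chance alone gives about 1 in 20.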

How the results depend on the processing

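Within regions, the count of called members changed in 5 cases besides single libraries. In TG_SD against WT_SD of brainstem it became 1, mt-Tp, with filterByExpr, with a total count of at least 50 (-1.36), and, both added after seeing the data, with filterByExpr and 0 surrogate variables (-1.45) or filterByExpr without TG_HFD replicates 1 and 3. With this change of both filter and libraries, TG_HFD against TG_SD had 2 called members, mt-Tp (1.42) and mt-Atp8 (-0.41). Leaving out single libraries gave 0 to 1 called members in TG_HFD against TG_SD of brainstem (mt-Atp8 without TG_HFD replicate 1) and 0 to 1 in TG_SD against WT_SD of hippocampus (mt-Tp without TG_SD replicate 5), and 0 in the other comparisons. The brainstem difference of mt-Tp in TG_SD ranged from -1.42 to -1.23 without single libraries, and DESeq2 gave it -1.35 with no adjusted p. The difference of this effect between the regions was called under RLE, library totals alone, nuclear genes alone, filterByExpr, DESeq2, the GC offset and without the nuclear copies, and at 1.76 to 1.96 over left-out libraries, and was not run with the replicate block, under which the mean region difference of mt-Tp was 0.39.

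Between regions, the members called higher in hippocampus were 2 with RLE, nuclear genes alone for scaling, filterByExpr, DESeq2 or the replicate block, 3 with the GC offset and 0 with WT_SD libraries alone, and 1 to 2 over left-out libraries. Those called lower were 7 with library totals alone, 8 with WT_SD libraries alone, 3 with filterByExpr (mt-Nd3 was not called), 1 with the GC offset, and 4 to 7 over left-out libraries, where 7 came without hippocampus TG_SD replicate 5. mt-Nd4l turned to 0.01 with RLE, nuclear genes alone or DESeq2, 0.05 with filterByExpr, 0.00 with the replicate block and 0.10 with the GC offset, and lay between -0.03 and 0.01 over left-out libraries. The GC offset turned mt-Nd4 to 0.07, mt-Nd5 to 0.04 and mt-Nd6 to 0.01, and WT_SD libraries alone turned mt-Tp to -0.21. The causes were not tested. Leaving the 12 nuclear copies out, added after seeing the data, changed 1 call, that of mt-Nd2 at -0.30.

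Within a region, same-numbered libraries of different groups had median correlations of 0.0392 in brainstem and 0.0651 in hippocampus. For libraries with different numbers these were -0.026 and -0.0414. Libraries were not compared across the regions, so whether a replicate number marks a shared animal was not tested. The replicate block called 0 members within regions. Of the 22 tRNA genes, 3 had counts high enough for a test.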
